A study of Mus musculus with 8 samples.

Results

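The genes described here encode the laminin-facing side of the epithelial basement membrane: the integrin chains Itga6, Itgb4 and Itga3, the laminin chains Lama3, Lama5 and Lamb3, the transmembrane collagen Col17a1 and the network collagens Col4a1 and Col4a2. They were chosen by symbol, and all 9 were present among the 27514 genes shared by the matrices of 8 single-cell libraries of mouse thymic epithelial cells (TEC). For each gene the summed level, given as CPM (unique molecular identifiers, UMIs, of the gene scaled to the total of its library), and the share of cells with a UMI were followed across stages and lineages, and co-detection with Krt14 was followed in adult medullary TEC (mTEC).

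All mice were WT C57 B6 (CD45.2), with no transgene or treatment in any library used. Live thymic cells (DAPI-) with EpCAM and without CD45 were sorted as total TEC at E13.5, as Ly51+ UEA-1- cortical TEC (cTEC) at E15.5, at E17.5, in newborns (NB) and in adults, and as Ly51- UEA-1+ mTEC in adults. NB mice were 0 to 2 days old and adult mice 4 to 6 weeks old. Each age before the adult had 1 library, and adult cTEC and adult mTEC had 2 each. Cells were captured as 2 data sets: the second held the E17.5 library and the adult libraries numbered 2, and the first held the other 5. The labels do not say whether libraries came from separate mice, so the p-values below measure the spread between libraries, which may be technical. Embryonic thymi were dispersed with trypsin, whereas NB and adult thymi were digested with Liberase and enriched on Percoll, so that the step from fetal to postnatal libraries and the change of digestion cannot be told apart.

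Epithelial cells stand on a basement membrane, a sheet in which laminin trimers, each of an alpha, a beta and a gamma chain, and a network of type IV collagen are laid side by side. Integrins that pair the chains Itga6 and Itgb4 bind laminin trimers that hold Lama3 and Lamb3 and, with Col17a1 and the linker proteins Dst and Plec, build the hemidesmosomes that anchor basal keratinocytes to the sheet. Itga6 and Itga3 also pair with Itgb1 in other laminin receptors. In the thymus the epithelium forms a three-dimensional mesh rather than a sheet, and Krt14, a keratin of basal layers, marks a large share of medullary cells.

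Promoter windows from RefSeq (GRCm38.p6, from 250 bases before to 50 bases after a start site) matched 6 of the 9 genes. Lama5 and Lamb3 are shown because each passed a test below, Col17a1 because its level was near 0 before the adult, and the stretch at Col4a2 because the start sites of the collagen pair lie 21 bases apart. All are written 5′ to 3′, the first 3 as 120 bases upstream of a start site, the Lamb3 stretch ending 1 base short of it, with capitals for the motifs searched.
Lama5, chr2:180225860-180225979, minus strand: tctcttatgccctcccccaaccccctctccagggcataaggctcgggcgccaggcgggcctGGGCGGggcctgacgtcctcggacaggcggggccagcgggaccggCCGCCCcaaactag
Lamb3, chr1:193301873-193301992, plus strand: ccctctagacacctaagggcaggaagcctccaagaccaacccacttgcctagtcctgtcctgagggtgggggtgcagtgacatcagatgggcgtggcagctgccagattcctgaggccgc
Col17a1, chr19:47692043-47692162, minus strand: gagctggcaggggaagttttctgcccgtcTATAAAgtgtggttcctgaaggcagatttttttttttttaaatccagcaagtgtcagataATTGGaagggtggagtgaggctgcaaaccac
Col4a2 to Col4a1, chr8:11312805-11312826, plus strand: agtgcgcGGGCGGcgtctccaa

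The motifs, searched on both strands, were the GC box GGGCGG, the AP-1 site TGANTCA, the CCAAT box CCAAT, the TATA box TATAAA and the E-box CACGTG, which occurred in 35.7%, 7.81%, 37.4%, 13.6% and 7.15% of 32851 promoter windows. The Lama5 window held 4 GC boxes and 72.7% G and C. Neither of the Lamb3 windows held any of the 5 motifs, which says only that these letters are not there. The Col17a1 window, at 46.3% G and C against a median of 52.7% over all windows, held 2 TATA boxes and 1 CCAAT box. Col4a1, on the minus strand (chr8:11198423-11312826), and Col4a2, on the plus strand (chr8:11312805-11449287), are transcribed away from each other, and their windows shared 78 bases. The other genes lie at chr2:71745616-71858416 (Itga6), chr11:115974709-116008412 (Itgb4), chr11:95044474-95076801 (Itga3), chr18:12333819-12583013 (Lama3), chr2:180176373-180225859 (Lama5), chr1:193207699-193343878 (Lamb3) and chr19:47646344-47692094 (Col17a1) of GRCm38, as GENCODE M21 gives them. The Lamb3 locus overlaps the protein-coding genes Hsd11b1 and G0s2 on the opposite strand, and whether the counting used strand is not given in the sources used here.

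After the limits on mitochondrial UMIs and detected genes, 25750 of 28334 cells were kept, of which 25302 lay in epithelial-like clusters and entered the sums. Libraries held from 507 to 8350 cells with medians of 3996 to 11386 UMIs per cell, and adult cTEC replicate 1 was the shallowest. Any 2 libraries shared at most 84 cell barcodes. The labels were checked against defining markers: Epcam was at 305 to 999.6 CPM in all libraries, Psmb11, the cortical proteasome subunit, at 667 and 1395 CPM in adult cTEC against 3.85 and 8.57 in adult mTEC, and Aire, the medullary regulator, at 435 and 399 CPM in adult mTEC against 9.27 and 2.72 in adult cTEC. The adult cTEC gate also held Krt14 at 295 and 194 CPM and the mesenchymal marker Dcn at 499 and 310 CPM. Intervals in brackets cover 95% of counting error only, exact Poisson for CPM and exact binomial for shares.

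Each of the 3 integrin chains had a higher level in all 4 adult libraries than in any earlier one. Itga6, the alpha chain of the hemidesmosome integrin, was at 40.4 CPM (37.1 to 43.9) in E13.5 TEC, 45.0 in E15.5 cTEC, 46.6 in E17.5 cTEC and 74.6 in NB cTEC. In the adult it stood at 117 (103 to 133) and 90.6 (81.5 to 100.4) CPM in cTEC and at 151 and 116 CPM in mTEC. The 3 fetal libraries were the lowest, with intervals of neighbouring stages that overlapped, and all 4 adult libraries lay above the NB library. Its partner Itgb4, which reaches into the cell to the keratin linkers, was at 19.6, 21.6, 32.2 and 29.8 CPM from E13.5 to NB, at 71.4 and 44.8 in adult cTEC and at 47.0 and 32.8 in adult mTEC. Adult mTEC replicate 2 could not be told from E17.5 cTEC within counting error. Itga3, the alpha chain of another laminin receptor, was at 6.26, 5.86, 10.6 and 8.99 CPM before the adult, at 24.6 and 13.1 in adult cTEC and at 20.9 and 16.4 in adult mTEC. For Itga3 the intervals of adult cTEC replicate 2 and E17.5 cTEC overlapped.

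**Figure D1:**
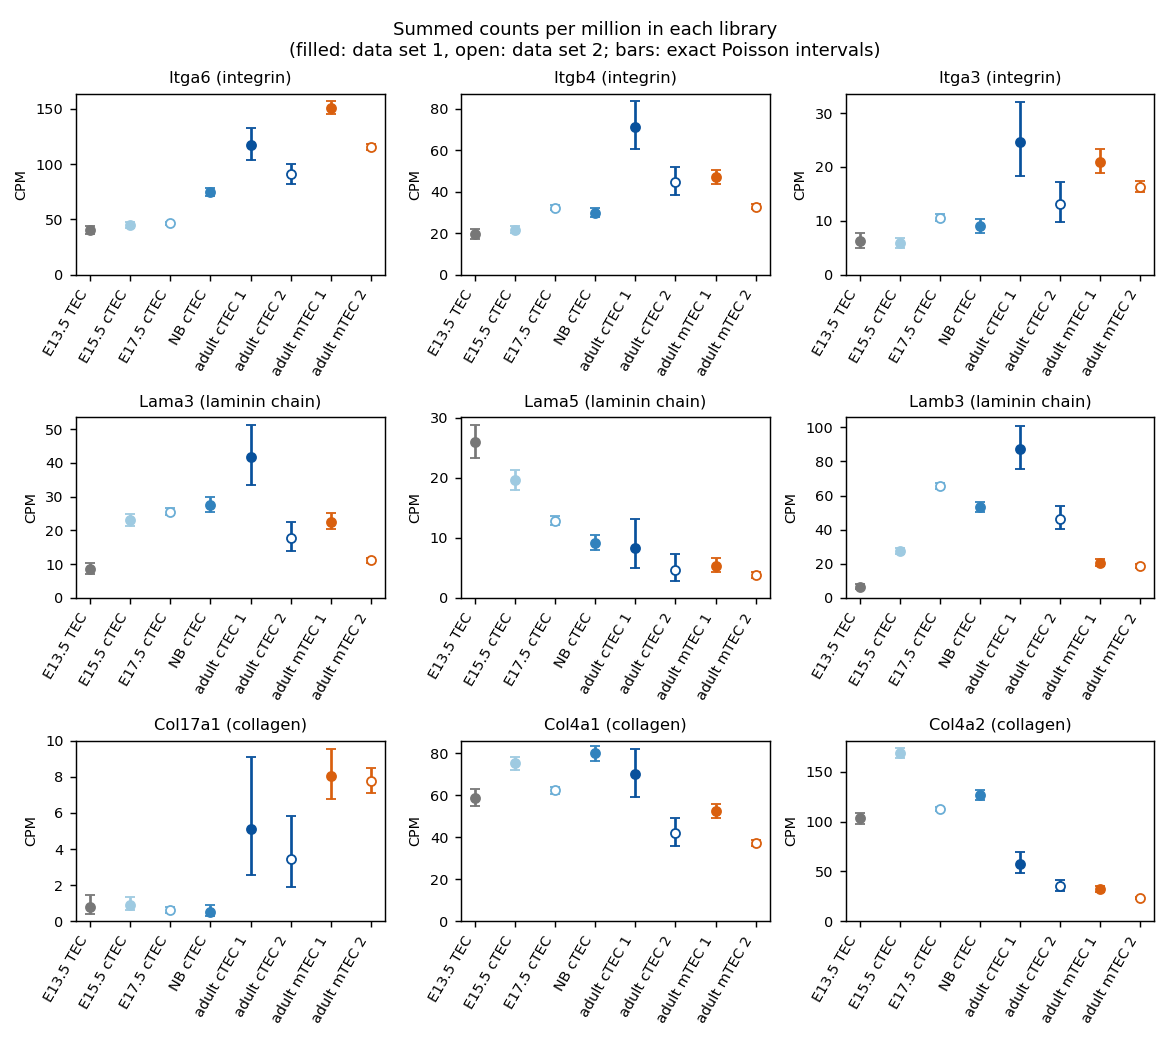
CPM (y axis, linear from 0) of each of the 9 genes in the 8 libraries (x axis), with exact Poisson intervals as bars, filled symbols for data set 1 and open symbols for data set 2. Itga6 rises from 40.4 CPM at E13.5 to 117 and 90.6 CPM in adult cTEC, Lama5 falls from 25.9 to 8.34 and 4.70 CPM, and Col17a1 stays under 1 CPM before the adult.

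The laminin chains took different courses. Lama5, the alpha chain of the laminins found in most basement membranes, was at 25.9 CPM (23.3 to 28.8) in E13.5 TEC, 19.7 in E15.5 cTEC, 12.9 in E17.5 cTEC and 9.16 in NB cTEC, then at 8.34 (4.94 to 13.2) and 4.70 (2.83 to 7.34) in adult cTEC and 5.35 and 3.83 in adult mTEC. Its level was lower at every stage than at the one before, and from NB onward neighbouring libraries overlapped in their intervals. Lamb3, the beta chain of the hemidesmosome laminin, was at 6.63 CPM in E13.5 TEC, 27.5 in E15.5 cTEC, 65.5 in E17.5 cTEC and 53.3 in NB cTEC. It was at 87.6 and 46.5 CPM in adult cTEC and at 20.8 and 18.6 CPM in adult mTEC. The E13.5 library had the lowest Lamb3 level, and the cTEC libraries from E17.5 onward all lay above both mTEC libraries. Lama3, the alpha chain of the same trimer, was at 8.69, 23.0, 25.5 and 27.6 CPM from E13.5 to NB, at 41.7 and 17.8 in adult cTEC and at 22.6 and 11.1 in adult mTEC. Adult cTEC replicate 1 was the highest and E13.5 TEC the lowest for Lama3, while adult cTEC replicate 2 lay below E15.5 cTEC.

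Among the collagens, Col17a1 had its highest levels in adult cells. It was at 0.81, 0.91, 0.60 and 0.52 CPM from E13.5 to NB, resting on 11 to 54 UMIs per library, at 5.10 and 3.47 CPM in adult cTEC, with 11 and 14 UMIs, and at 8.06 and 7.78 CPM in adult mTEC, with 134 and 524 UMIs. All 4 adult libraries lay above all earlier ones, although the interval of adult cTEC replicate 1, 2.54 to 9.12 CPM, shows how few UMIs carried that value. Col4a1 and Col4a2 wind together into the main type IV collagen molecule. Col4a1 was at 58.6, 75.1, 62.3 and 79.9 CPM from E13.5 to NB, at 70.0 and 42.1 in adult cTEC and at 52.3 and 37.1 in adult mTEC. Col4a2 was at 103, 169, 113 and 127 CPM from E13.5 to NB, at 57.9 and 35.4 in adult cTEC and at 32.4 and 23.4 in adult mTEC. Every adult library lay below every earlier library for Col4a2, as did 3 of the 4 adult libraries for Col4a1, whose adult cTEC replicate 1 overlapped with the fetal values.

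Shares of cells with a UMI were compared after each cell had been thinned to 2000 UMIs. Itga6 was detected in 8.30%, 7.70% and 8.74% of cells at E13.5, E15.5 and E17.5, in 12.9% of NB cTEC, in 19.9% and 14.6% of adult cTEC and in 28.8% and 20.9% of adult mTEC. The shares of 4 genes (Itga6, Itgb4, Itga3 and Col17a1) were higher in both adult cTEC libraries than in all 3 fetal libraries, an order that 19.7% of the genes tested showed. The shares of Lama5 and Col4a2 were lower in both, an order shown by 20.8% of genes. Lama5 went from 4.65% of cells at E13.5 to 0.701% and 0.766% of adult cTEC, which were 3 and 4 cells. Counts this small depend on the random draw. In a second draw of the same adult cTEC at the same depth, cells were divided by a UMI of Psmb11 or Prss16. With and without such a UMI, Lama5 was in 3 and 3 cells of replicate 1 and 4 and 4 of replicate 2. Itga3 was in 7 and 4 cells of replicate 2, against 9 and 10 with and without Krt14 in the first draw. Its share in that library then no longer lay above that of E17.5. Lamb3 was detected in 1.68% of cells at E13.5 and in 12.8% at E17.5, and adult cTEC, at 16.4% and 9.96%, lay on both sides of the E17.5 share.

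No cell type in these libraries is a clean negative for these genes. Thymocyte-like droplets of the NB library (166 of its cells) held Psmb11 in 91.6% and Col4a2 in 21.7% of cells, near the 21.6% of NB cTEC, so these droplets held epithelial transcripts. E13.5 held 131 thyroid-like and 124 parathyroid-like cells, which were left out of the sums. Itgb4, Lama3, Lamb3 and Col17a1 had 0 UMIs in all 131 thyroid-like cells after thinning, which by an exact binomial bound allows up to 2.78% of such cells to hold a UMI at this depth, and Itgb4 was in 1.61% of parathyroid-like cells against 3.89% of the epithelial-like cells of that library. Lama5 was in 7.63% (3.72% to 13.6%) of thyroid-like and 8.87% (4.51% to 15.3%) of parathyroid-like cells, against 4.65% of the epithelial-like cells. Col17a1 was in 0.0564% to 0.174% of cells before the adult, which were 2 to 11 cells per library, and in 1.32% to 1.78% of adult cells. All of these shares lay below the bound of the thyroid-like cells, which therefore sets no background for this gene.

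The slope of each gene over the stages, from E13.5 TEC through the cTEC libraries, was fitted across 6 libraries with edgeR. E13.5 was ranked as 1 and the adult as 5, with data set as a term. The E13.5 library was total TEC and the others cTEC, so its step to E15.5 and the change of gate cannot be told apart. Itga6 rose by 0.39 ± 0.07 (SE) on the log2 scale per stage (adjusted p = 0.027, edgeR quasi-likelihood test) and Lama5 fell by 0.49 ± 0.10 per stage (adjusted p = 0.0316). These were 2 of 9 genes called, beside 8.32% of all 14265 genes tested, with 5.22% called higher and 3.1% lower. Itgb4 and Itga3 had slopes of 0.39 ± 0.10 and 0.41 ± 0.12 and missed the threshold, with adjusted p = 0.0567 and 0.0907 in edgeR. Slopes of Lamb3 (0.61 ± 0.22), Col17a1 (0.65 ± 0.28), Lama3 (0.32 ± 0.17) and Col4a2 (-0.33 ± 0.18) had adjusted p-values of 0.141 to 0.290, and that of Col4a1 was -0.00 ± 0.10. The median slope of the 9 genes was 0.39, against 0.00 for all genes tested.

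Both calls depended on single libraries. With adult cTEC replicate 1 left out, 24 genes were called in all and none of the 9, and with replicate 2 left out, 521 and none, at slopes of 0.37 and 0.38 for Itga6 and -0.56 and -0.45 for Lama5. Without the E13.5 library Itga6 had 0.43 (adjusted p = 0.0544, edgeR) and Lama5 kept its call at 0.0495. DESeq2 called 5 of the 9, beside 20.2% of genes (11.5% higher, 8.69% lower), and edgeR without the data set term 3, beside 9.42% (5.43% higher, 3.99% lower). Within data set 1 alone the slopes were 0.38 and -0.45, and neither passed. This is not a separate check from leaving out replicate 2, where the data set term takes up the E17.5 library. Within data sets, Itga6 in adult cTEC was 2.90-fold (2.5 to 3.37) its level at E13.5 in data set 1 and 1.94-fold (1.75 to 2.16) its level at E17.5 in data set 2, and Lama5 was at 0.322-fold (0.200 to 0.517) and 0.365-fold (0.232 to 0.575) of those levels. Lama3 and Lamb3 lay above the preceding library in one data set and below it in the other: Lamb3 in adult cTEC was 1.64-fold its NB level in data set 1 and 0.710-fold its E17.5 level in data set 2, and Lama3 1.51-fold and 0.698-fold. These ratios start from different stages, and their difference was not tested.

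Other values moved with age too. The summed level of 12 dissociation stress genes (Fos, Jun and others, none at 0 in any library) was 422 to 584 CPM in the 3 fetal libraries and 9572 to 18160 CPM in NB and adult cTEC. The sum of 8 mesenchymal markers was 4.48 to 8.47 CPM in fetal libraries, 30.7 in NB cTEC and 510 and 318 in adult cTEC, mostly from Dcn, with 2 of the 8 at 0 in both adult cTEC libraries. Dcn was a leading gene of the main adult cTEC cluster in both data sets. The sum of 7 mTEC I markers, Krt5 and Krt14 among them, was 220 to 948 CPM before the adult and 8117 and 2356 CPM in adult cTEC, with 1 of the 7 at 0 in replicate 1. With adult cTEC limited to those in which Psmb11 or Prss16 was detected, Itga6 and Lama5 kept their calls at 0.37 ± 0.07 and -0.59 ± 0.11 per stage (adjusted p = 0.0286 and 0.0273, edgeR). In cells without any endothelial or mesenchymal UMI, Itga6 was detected after thinning in 7.42% to 8.64% of fetal cells and in 21.6% and 10.1% of adult cTEC, and Itgb4 in 5.65% of adult cTEC replicate 2, below the 6.45% of E17.5. In the age trend fitted without those cells, Itga6 kept its call at 0.37 ± 0.08 per stage (adjusted p = 0.0454, edgeR) and Lama5 lost it at -0.43 ± 0.11 (adjusted p = 0.0729). The part of the stress genes and of the mTEC I markers in the trend was not tested.

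Of 81 genes in 8 lists of related function, 72 were tested for the age trend and 7 were called, 6 higher and 1 lower, beside the 8.32% of all genes (5.22% higher, 3.1% lower). Sdc4, a syndecan that binds laminins beside integrins, rose by 0.81 ± 0.11, Itgav by 0.46 ± 0.09 and the adaptor Vcl by 0.41 ± 0.08, and Krt14 rose by 0.95 ± 0.20 (adjusted p = 0.0121 to 0.0372, edgeR). Fras1, an extracellular protein of the embryonic epithelial basement membrane, fell by 0.45 ± 0.09 and was the only gene of the lists called lower. Itgb1, the common partner of Itga6 and Itga3, had a slope of 0.11 ± 0.09, and the linkers Plec and Dst had 0.31 ± 0.08 and 0.29 ± 0.16, none of them called. None of the 11 collagen maturation genes or the 7 tested proteases and inhibitors was called. Fitted without the cells that held an endothelial or mesenchymal UMI, Itgav and Krt14 lost their calls. Among the lists, that fit called 1 gene higher in each of the other laminin chains, hemidesmosome and laminin receptors, and integrin adaptors. The only call in the lower direction was 1 of the other basement membrane components. Of all genes, 6.85% were called (4.08% higher, 2.77% lower).

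In the adult, cTEC and mTEC were compared over 4 libraries with data set as a term, to ask which chains differ between the lineages. Lamb3 was 1.63 ± 0.40 higher in cTEC on the log2 scale (adjusted p = 0.000702, edgeR quasi-likelihood test). It was 4.22-fold (3.53 to 5.04) its mTEC level in data set 1 and 2.5-fold (2.14 to 2.91) in data set 2, and both cTEC libraries lay above both mTEC libraries. Lamb3 was the 1 gene of 9 called, in a comparison that called 32.4% of 15627 genes, 11.2% of those tested being higher in cTEC and 21.2% lower. The median of the 9 differences was 0.40, against -0.14 over all genes.

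The other members did not pass the threshold. Lama3 (0.71 ± 0.41), Col4a2 (0.65 ± 0.39), Itgb4 (0.46 ± 0.38), Lama5 (0.40 ± 0.59) and Col4a1 (0.23 ± 0.38) had estimates above 0, and Col17a1 (-0.99 ± 0.56), Itga6 (-0.43 ± 0.38) and Itga3 (-0.11 ± 0.41) below 0, with adjusted p = 0.180 to 0.869 in edgeR. Without the cells that held an endothelial or mesenchymal UMI, which were 59.8% and 52.0% of adult cTEC and 45.5% and 41.9% of adult mTEC, Col4a1 had an estimate of -0.49 ± 0.44 and Itgb4 of 0.04 ± 0.44 (adjusted p = 0.473 and 0.969, edgeR). Within both data sets Lama3 (1.84-fold and 1.60-fold), Col4a2 (1.79-fold and 1.51-fold) and Itgb4 (1.52-fold and 1.37-fold) were above their mTEC levels, with counting intervals above 1. Itga6 was at 0.777-fold (0.682 to 0.884) and 0.784-fold (0.706 to 0.870) its mTEC level in the data sets, lower in cTEC in both. Itga3 was at 1.17-fold (0.878 to 1.57) in data set 1 and 0.802-fold (0.609 to 1.06) in data set 2.

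The estimates of most members depended on which medullary cells stood for the lineage. Against mTEC of the mTEC I-like clusters alone (621 and 1028 cells, with Krt5 at 1583 and 1289 CPM), an alternative chosen after the data were seen, the Lamb3 difference was -0.14 ± 0.37 (adjusted p = 0.858, edgeR) and Itga6 had -1.62 ± 0.31 (adjusted p = 0.0228). Lama3, Col4a2, Itgb4, Lama5 and Col4a1 then had estimates below 0 as well, of -0.90, -0.72, -0.49, -0.40 and -1.03, with adjusted p = 0.0849 to 0.605. Itga6 was then the 1 gene of 9 called, beside 10.9% of those tested (5.50% higher, 5.42% lower).
The call was also lost in the edgeR fits without adult mTEC replicate 1 (adjusted p = 0.0566) or replicate 2 (adjusted p = 0.119), where the estimates were 1.62 and 1.60. Those fits also dropped the data set term and took the lone mTEC library to vary like the cTEC libraries.

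Of the genes in the related lists 75 were tested, of which 25 were higher in cTEC and 10 lower, beside 11.2% and 21.2% of all genes. Lamb1 and Lamc1, the beta and gamma chains that accompany Lama5 in its trimers, were 1.92 ± 0.40 and 2.11 ± 0.46 higher in cTEC (adjusted p = 8.6e-05 and 0.000157, edgeR). Lamb1 was at 77.4 and 39.1 CPM in cTEC and at 18.2 and 10.5 CPM in mTEC. The hemidesmosome linkers Dst and Plec were 1.80 ± 0.39 and 0.99 ± 0.40 higher (adjusted p = 0.000126 and 0.0458), Itgb1 was 1.03 ± 0.38 higher, and Bcam, a receptor for Lama5 trimers, was 2.20 ± 0.39 higher. Of the other basement membrane components 12 were tested, and 8 were higher and none lower, with a median of 1.76, led by Col18a1 at 2.35 ± 0.40. The sum of the 8 mesenchymal markers, some of which code for matrix proteins, was 510 and 318 CPM in adult cTEC and 99.7 and 69.1 CPM in adult mTEC. Most of the cTEC sums came from Dcn, a leading gene of the clusters that held 423 of 493 and 471 of 535 adult cTEC. Cells with such UMIs were thus not shown to be stromal. The UMIs were looked for without thinning, so deep cells were more likely to be left out. Fitted without the cells that held an endothelial or mesenchymal UMI, 5 of 11 tested basement membrane components were higher and 1 lower, with a median of 1.26. That fit called 23.6% of all genes (8.46% higher, 15.1% lower). Plec and Itgb1 no longer passed in it, at 0.97 ± 0.44 and 0.56 ± 0.42 (adjusted p = 0.101 and 0.373, edgeR). Over the related lists together, fewer genes were higher in cTEC and more were lower than in the main fit. The other integrins had 0 higher and 3 lower, against 3 and 3 in the main fit. The hemidesmosome and laminin receptors had 3 and 1, against 4 and 0, and the basal epithelial genes 1 and 4, against 2 and 3. The adaptor Tns1 was 3.49 ± 0.45 and the gelatinase Mmp2 3.33 ± 0.43 higher in cTEC. Itgb8, Mmp7 and Timp1 were 3.82 ± 0.56, 5.69 ± 0.83 and 2.34 ± 0.41 lower in cTEC. Of the 6 basal epithelial genes Trp63 was 2.39 ± 0.39 higher, while Krt17 and Krt14 were 1.90 ± 0.45 and 1.85 ± 0.41 lower.

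**Figure D2:**
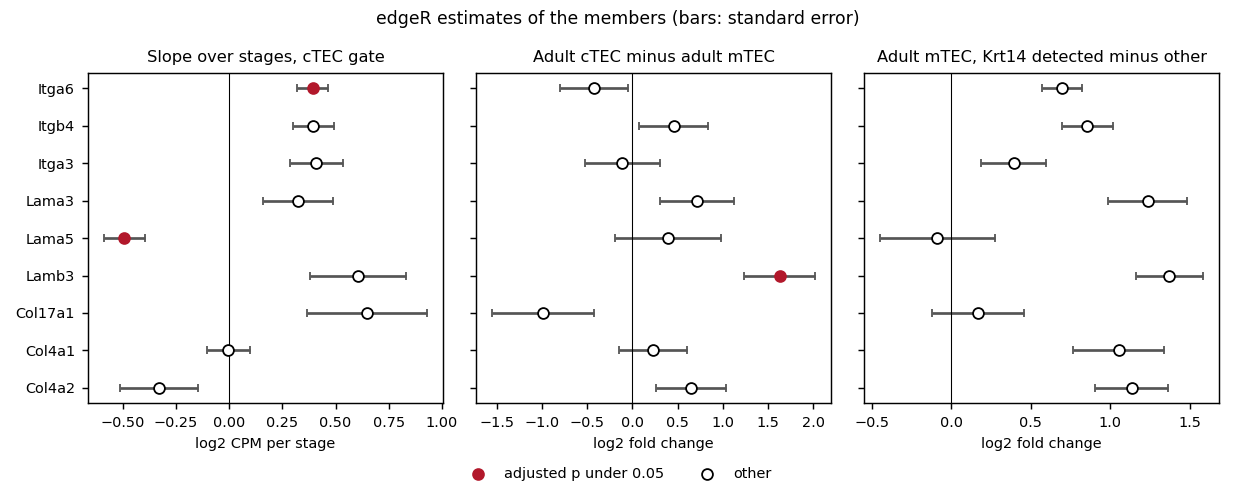
edgeR estimates (x axis, log2) of the 9 genes (y axis) for the slope over stages, for adult cTEC minus adult mTEC and for adult mTEC with Krt14 minus those without, with standard errors as bars and red symbols for an adjusted p under 0.05. Itga6 (0.39) and Lama5 (-0.49) are called in the first panel, Lamb3 (1.63) in the second and none in the third.

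Adult mTEC are not one kind of cell, and the level of these genes differed among their clusters, which were built with the 9 genes left out of the variable genes. In mTEC I-like cells Itga6 was at 310 (294 to 326) and 272 CPM in the 2 libraries, Lama3 at 61.8 and 35.1, Lamb3 at 58.0 and 71.4, Itgb4 at 83.1 and 63.8, Col4a1 at 112 and 92.5 and Col4a2 at 76.1 and 61.8. In the mTEC II-like cluster of replicate 1 (319 cells, Aire at 946 CPM) Itga6 was at 99.6 CPM, Lama3 at 4.14, Lamb3 at 6.07, Itgb4 at 20.7, Col4a1 at 12.1 and Col4a2 at 11.3. The mTEC III-like cluster of replicate 2 (500 cells) had Lamb3 at 14.3 and Itga6 at 93.4 CPM, and the mTEC IV-like cluster (153 cells), of the tuft-like kind, had 6.83 and 63.7. Col17a1 was lower in mTEC I-like cells, at 4.26 and 5.01 CPM, than in mTEC II-like (16.6 CPM) and mTEC III-like cells (18.4 CPM). In mTEC IV-like cells it was at 2.28 CPM (0.469 to 6.65), on 3 UMIs. The cells of unnamed clusters, 494 in replicate 1 and 3934 in replicate 2, had Col17a1 at 4.40 and 7.63 CPM. Itga3 lay between 16.0 and 23.1 CPM in every named or mixed cluster of both libraries. These are descriptions of clusters of the same cells and carry no test.

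Co-detection with Krt14 was measured in adult mTEC thinned to 5000 UMIs, of which 1072 of 1452 cells in replicate 1 and 3849 of 5047 in replicate 2 had a Krt14 UMI. Lamb3 was detected in 13.7% of cells with Krt14 and 4.47% of those without in replicate 1, and in 10.2% and 5.09% in replicate 2. Lama3 was in 13.9% and 5.53%, then 6.39% and 3.26%. Both laminin chains were thus found more often beside Krt14 in both libraries. Col4a1 was in 26.8% and 10.0% of cells in replicate 1 and 18.0% and 12.5% in replicate 2, and Col4a2 in 18.8% and 7.63%, then 12.7% and 7.10%. Itgb4 was in 23.7% and 13.4%, then 16.7% and 10.6%, and Itga6 in 52.8% and 40.3%, then 43.2% and 33.7%. Itga6 and Krt14 were found together in 39.0% and 33.0% of all cells, where independent detection would give 36.6% and 31.2%.
The remaining genes showed little or none of this. Itga3 was in 9.89% and 7.89%, then 8.5% and 6.84%, while the shares of Col17a1 (3.08% and 3.16%, then 3.72% and 4.01%) and Lama5 (2.89% and 3.68% in replicate 1, the share with Krt14 being 0.785-fold and 1.15-fold that without in the 2 libraries) overlapped in their intervals.

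On the sums of these cells, with the library as a block, Krt14 was the 1 gene called of 14512 tested (0.00689%), and none of the 9 was. Krt14 defined the split, so its own call was set in advance. Each library gave a sum with and a sum without Krt14, which left few residual degrees of freedom. The lack of calls therefore says little about the members. At an unadjusted p under 0.05 in the same edgeR test there were 1945 genes. The estimates were 1.37 ± 0.21 for Lamb3, 1.24 ± 0.25 for Lama3, 1.13 ± 0.23 for Col4a2, 1.05 ± 0.29 for Col4a1, 0.86 ± 0.16 for Itgb4 and 0.70 ± 0.13 for Itga6, with adjusted p = 0.322 to 0.332 in edgeR. Itga3 (0.39 ± 0.21), Col17a1 (0.17 ± 0.29) and Lama5 (-0.09 ± 0.36) were smaller. The median of the 9 was 0.86, against 0.00 for all genes. The count of calls depended on the settings. None of the 9 passed with the size factors of DESeq2, without the cells with most UMIs or with all UMIs of the same cells summed, the last chosen after the data were seen. DESeq2 itself gave an adjusted p for 7 of them, without Col17a1 and Lama5, and called none, beside 1.99% of 8885 genes. With at least 3 Krt14 UMIs set against 0, the first 6 genes passed, all higher, beside 4% of 13770 genes (2.46% higher, 1.54% lower), with 1.12 ± 0.14 for Itga6 and 1.76 ± 0.24 for Lama3. With no filter on low counts 6 of the 9 passed, beside 5.13% (2.69% higher, 2.45% lower), and with cells thinned to 3000 UMIs 5, beside 3.05% (2.06% higher, 0.982% lower).

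Levels were highest in the cells with the most Krt14. In replicate 1, Lamb3 was at 11.6 CPM (7.26 to 17.53) in cells with 0 Krt14 UMIs, 11.7 with 1 to 2, 29.7 with 3 to 9 and 60.4 (49.8 to 72.7) with 10 or more. In replicate 2 it was at 11.4, 13.3, 26.1 and 69.0 CPM. For Lamb3, the 395 and 2120 cells with 1 or 2 Krt14 UMIs could not be told from cells without within counting error. Itga6 went from 120 through 98.7 and 181 to 323 CPM, and from 94.5 through 95.8 and 134 to 300.5 CPM. Lama3 ended at 67.4 and 39.2 CPM from 12.6 and 7.51, Itgb4 at 85.6 and 74.6 from 30.5 and 23.4, Col4a1 at 116 and 85.1 from 24.7 and 30.1, and Col4a2 at 74.9 and 61.3 from 16.8 and 16.4. Itga3, Lama5 and Col17a1 had overlapping intervals in the lowest and highest classes of both libraries. With at least 10 UMIs against 0, a threshold added after the data were seen, 6 of the 9 were called with estimates of 1.58 to 2.53, beside 30.6% of 11921 genes (12% higher, 18.6% lower).

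**Figure D3:**
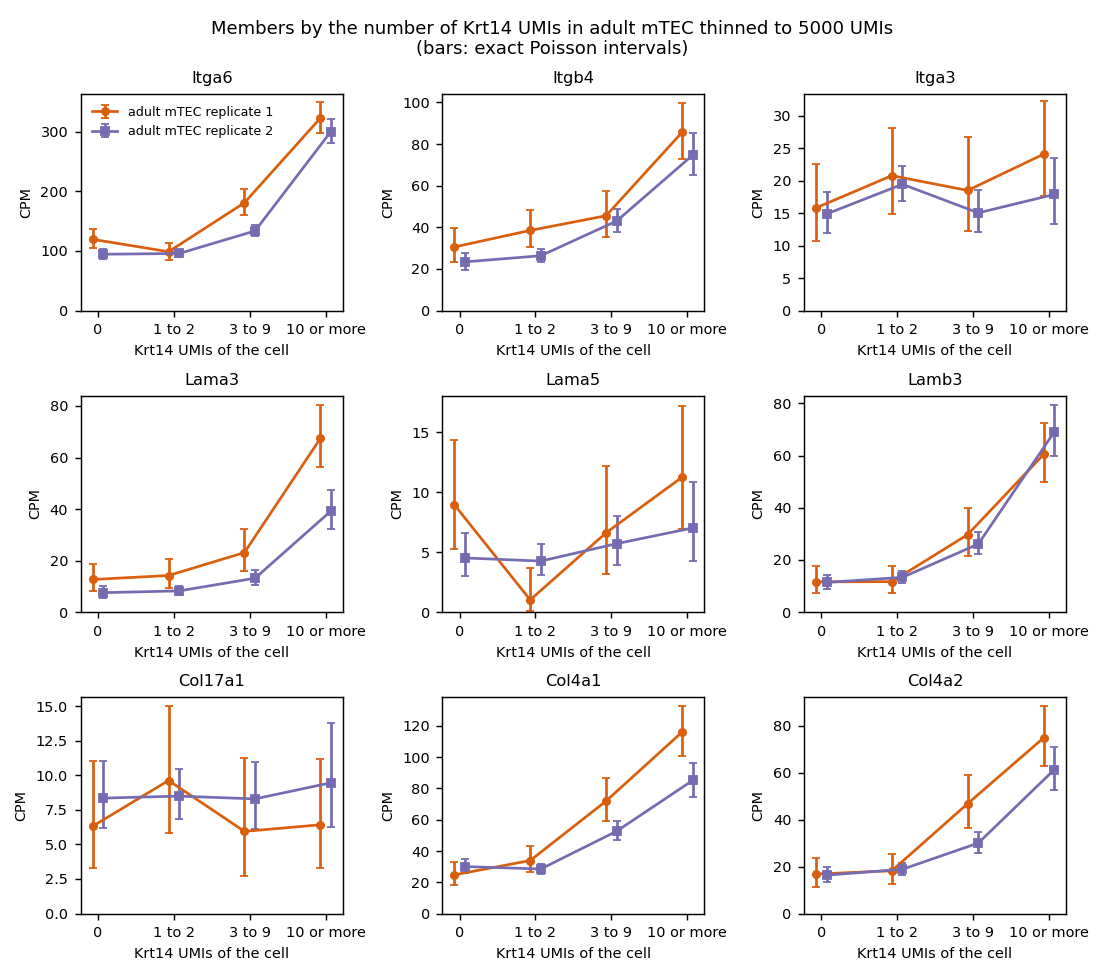
CPM (y axis, linear from 0) of each of the 9 genes in adult mTEC thinned to 5000 UMIs, by the number of Krt14 UMIs in the cell (x axis), with exact Poisson intervals, for replicate 1 (circles) and replicate 2 (squares). The lines for Itga6, Itgb4, Lama3, Lamb3, Col4a1 and Col4a2 turn upward from 3 Krt14 UMIs on, and Itga3, Lama5 and Col17a1 have overlapping intervals at both ends.

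Droplets can also hold UMIs of free RNA, whose part in these shares was not tested. In libraries of other gates Krt14 was in 3.19% to 5.50% of cells thinned to 2000 UMIs from E13.5 to NB and in 30.1% and 22.6% of adult cTEC, against 59.0% and 50.3% of adult mTEC. In fetal and NB cells, Itga6 was in 7.27%, 5.81%, 10.6% and 8.99% of cells with Krt14 and in 8.34%, 7.79%, 8.65% and 13.1% of the others, higher beside Krt14 in E17.5 cTEC alone. Col4a2 was in 27.3%, 31.0%, 22.8% and 28.6% of cells with Krt14 and in 18.5%, 27.7%, 20.8% and 21.1% of the others, higher beside Krt14 in all 4 of these libraries. Itgb4 was in 1.82%, 7.1%, 7.88% and 6.88% against 3.96%, 3.78%, 6.39% and 6.03%, higher beside Krt14 in 3 of the 4. Lama3 was in 0%, 4.52%, 4.62% and 3.7% against 1.98%, 4.99%, 5.3% and 5.23%, lower beside Krt14 in all 4. Lamb3 was in 1.82%, 5.16%, 12.5% and 13.2% against 1.68%, 5.34%, 12.8% and 10.3%. These shares rest on 55 to 368 cells with Krt14 and were not tested. In adult cTEC, Itga6 was in 24.0% and 23.7% of cells with Krt14 against 18.1% and 11.9% of the others.

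Co-detection of the members with each other was measured in the same mTEC (5000 UMIs), as the number of shared cells over that given by independent detection. Lama3 and Lamb3 shared 39 and 58 cells, 2.03 and 2.26 times the number given by their separate shares. Col4a1 and Col4a2 shared 80 and 164 cells (1.55 and 1.71 times), and Lamb3 and Col4a2 44 and 101 (1.69 and 1.95 times). Pairs of chains that do not assemble reached like values, with Lamb3 and Col4a1 at 1.80 and 1.76 times and Lama3 and Lama5 at 2.47 and 1.74 times, the latter on 13 and 12 cells. The hemidesmosome integrin pair Itga6 and Itgb4 shared 175 and 379 cells, 1.16 and 1.20 times. Col17a1 shared 2 and 35 cells with Col4a1, 0.199 and 1.10 times, and 4 and 10 cells with Lama5, which were 0.275% and 0.198% of cells where independent detection would give 0.096% and 0.0915%. Among the named clusters 6 of the genes were highest in the same mTEC I-like cells, and the part of that in these ratios was not tested.

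**Figure D4:**
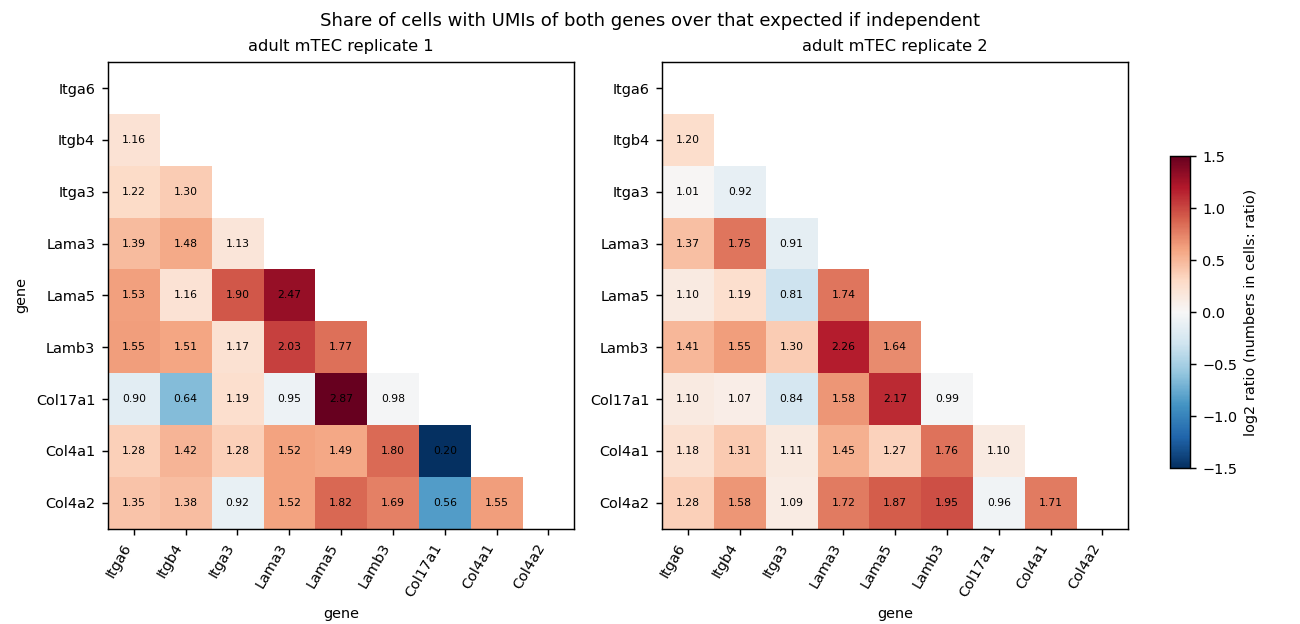
Ratio of the share of cells with UMIs of both genes to the product of their separate shares, for each pair of the 9 genes (both axes), in adult mTEC replicate 1 (left) and replicate 2 (right), coloured on a log2 scale. Lama3 with Lamb3 is at 2.03 and 2.26, and Col17a1 with Col4a1 is at 0.199 and 1.10.

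Adult cTEC were also divided by whether a cell thinned to 2000 UMIs had a UMI of Psmb11 or Prss16, since 183 of 428 cells in replicate 1 and 143 of 522 in replicate 2 had neither. Itga6 was detected in 13.9% of cells with cortical transcripts and 22.4% of those without in replicate 1, and in 12.7% and 25.2% in replicate 2. On the sums it was 0.89 ± 0.24 lower in the cells with cortical transcripts (adjusted p = 0.0200, edgeR), the 1 gene called of 6 tested, beside 11% of 5731 genes (4.66% higher, 6.3% lower). Krt14 was 1.71 ± 0.18 lower in the same cells. Lamb3 was at 83.7 against 92.9 CPM in replicate 1 and at 51.5 against 38.5 CPM in replicate 2, and its estimate was 0.00 ± 0.28. Lama3 (0.50 ± 0.46), Col4a1 (0.29 ± 0.32), Itgb4 (-0.23 ± 0.29) and Col4a2 (-0.56 ± 0.34) did not pass. Of the genes in the related lists 44 were tested, of which 3 were higher with cortical transcripts and 6 lower. The gelatinases Mmp2 and Mmp9 were 1.38 ± 0.35 and 1.26 ± 0.33 higher and Dst 0.76 ± 0.24 higher, and Krt15, Timp2, Bcam and Sparc were 4.24, 1.73, 1.28 and 0.83 lower. The Itga6 estimate was -0.12 (adjusted p = 0.891) when cells were thinned to 1500 UMIs, and -0.69 (adjusted p = 0.00423) when all UMIs of the same cells were summed, an alternative added after the data were seen that called 18.3% of genes (7.86% higher, 10.5% lower). With DESeq2 the estimate was -0.93 and Itga6 did not pass (adjusted p = 1.0). Col17a1, Lama5 and Itga3 were removed by the filter on low counts, and without it they had -0.83 ± 1.62, -0.91 ± 1.0 and -0.45 ± 0.59 (each with adjusted p = 0.933, edgeR).

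At E13.5, the epithelial-like cells fell mostly into 3 clusters. One of 253 cells had Krt5 at 3932 CPM, against 137 and 68.0 in the others, and had Itgb4 at 29.1 CPM (22.4 to 37.3) against 20.1 (16.7 to 24.0) and 14.8. Itga6 was lowest there, at 20.8 CPM (15.2 to 27.8) against 42.3 and 46.6, while Lama3 was at 3.24 against 10.7 and 8.94. The Itga6 interval lay below those of both other clusters, and the Itgb4 interval overlapped with 1 of them.

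Over the 8 libraries, on log2(CPM + 10), the genes whose levels ran most like each member were searched among 3877 genes, as a description in which all points share library and depth. Itga6 was most like Prkcdbp and Gem (both r = 0.989), Itgb4 like Zbtb20 (0.957), Itga3 like Ctsb (0.972), Lama3 like Glul (0.970), Lama5 like Ufsp2 (0.992), Lamb3 like Maf (0.962), Col4a1 like Pip5k1a (0.992) and Col4a2 like Igf1r (0.995). Krt14 was among the 3 genes most like Col17a1 (0.988). Among the members themselves, Itgb4 and Itga3 (0.923), Itga6 and Itga3 (0.902), Lama3 and Lamb3 (0.865) and Col4a1 and Col4a2 (0.851) ran most alike within their families, while Itga6 and Itgb4 had 0.783 and Lama5 and Itga6 -0.876.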

How the data were processed

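The members and gene lists were chosen with earlier results of these data known. The study made Chromium Single Cell 3′ libraries (version 2 chemistry); the submitters' processing notes name bcl2fastq 2.17, STAR 2.5.1b, Cell Ranger 2.0.1 and mm10, and the matrix headers of data set 2 name software version 3.0.1. The deposited matrices hold raw UMI counts per gene and cell, not normalized by the authors. The growth text of the labels names bone marrow, whereas the tissue label and the markers are thymic.

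Cells with over 5% mitochondrial UMIs or over 5000 genes were left out, the limits of the study; no doublet caller was run. The cells left equal the numbers the study gives for data set 1 and differ from those it gives for data set 2. Cells were clustered per data set (2000 variable genes without the members, 20 components, 20 neighbours, Leiden at 0.8; leidenalg 0.10.2, scikit-learn 1.9.0, Python 3.11.15). A cluster was named when at least 3 markers and over 50% of its list were 4-fold up, and thymocyte-, parathyroid- and thyroid-like clusters were left out. Adult mTEC clusters were named within each library at a fold of 2. A cluster of E17.5 led by haemoglobin genes was kept, since haemoglobin genes alone were not taken to name a cluster.

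Counts were summed per library and tested with edgeR 4.0.16 (R 4.3.3; filterByExpr, TMM, quasi-likelihood test, Benjamini-Hochberg over all genes). The standard error is the estimate over the root of F. DESeq2 1.42.0, other scalings, filters, cell choices and left-out libraries were alternatives. The fits were tested on simulated data with 200 genes changed by 1 (age trend) or 2 (others) on the log2 scale. They recovered 196 (age trend, 14265 genes run), 174 (lineage, 15627), 200 (Krt14, 14512) and 196 (cortical transcripts, 5731). Of their calls, 7.98%, 1.69%, 7.83% and 0.508% were false. The changed genes were drawn from those with an average log2 CPM over 5. Lama3, Lamb3, Col4a2, Itga3, Col17a1 and Lama5 lay below that in the Krt14 comparison. The recovery says nothing of genes below it or of smaller changes. Genes named were the members, their partner chains and hemidesmosome genes, Krt14 and Krt5, the genes most like each member among those with an average log2 CPM over 5, and from the lists up to 5 per direction with the largest change past an adjusted p of 0.05 and an average log2 CPM over 3. Results of some related genes are not reported here.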

Additional observations from a re-analysis of the deposited data

Results flagged for a closer look

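Itga3 went opposite ways between the adult lineages in the data sets: the log2 ratio of adult cTEC to adult mTEC was 0.23 in data set 1 (53 against 348 UMIs) and -0.32 in data set 2 (53 against 1101 UMIs). The difference between the data sets was not tested, and the counting interval of each ratio holds 1.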

How the results depend on the processing

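The labels carry no replicate numbers, so libraries were not paired by number; the data set was a term in the fits between libraries and the library a block in those within them. The age trend called 1187 genes, against 2876 with DESeq2, 574 in data set 1 only and 24 to 521 with an adult cTEC library left out. The lineage comparison called 5063, against 2604 with DESeq2, 3210 without cells with an endothelial or mesenchymal UMI, and 2874, 2417, 2673 and 1528 without adult cTEC replicate 1 or 2 or adult mTEC replicate 1 or 2, each also without the data set term, which dropped alone left 4153. With mTEC I-like cells only, it called 1313, and Lamb3 (-0.14), Lama3 (-0.90), Col4a2 (-0.72), Itgb4 (-0.49), Lama5 (-0.40) and Col4a1 (-1.03) changed sign; over all its alternatives the adjusted p of Lamb3 ran from 0.000385 to 0.858. The Krt14 comparison called 1 gene, against 2 with the size factors of DESeq2, 1168 with no filter, 177 with DESeq2, 425 at 3000 UMIs, 551 from 3 Krt14 UMIs and 3644 from 10. The division by cortical transcripts called 628, against 106 with DESeq2 and 1619 with all UMIs summed. Of the shares, 4 were higher in adult cTEC, against 1 with no thinning and 2 without cells with an endothelial or mesenchymal UMI. The causes were not tested. For single genes, 307 values kept direction and side of the threshold, 28 passed it newly, 12 lost it and 28 changed sign, none of them past the threshold with the new sign in a fit. In the lineage comparison the other sign changes were Col4a1 without cells with an endothelial or mesenchymal UMI (-0.49), Lama5 against cTEC with a Psmb11 or Prss16 UMI (-0.051), and, without the data set term, Col4a1 without adult cTEC replicate 1 (-0.073) and Itga3 without replicate 2 (0.22). The age trend of Col4a1, near 0, turned to 0.0006 with DESeq2, 0.058 in data set 1 only, 0.003 without E13.5 cells with a parathyroid or thyroid UMI, and 0.017 to 0.057 with an adult cTEC library left out. Lama5 in the Krt14 comparison turned to 0.55 at 3000 UMIs, 0.32 from 3 and 0.51 from 10 Krt14 UMIs and 0.052 with all UMIs summed, and was -0.54 and 0.18 within single libraries. In the division by cortical transcripts, Lamb3 turned to -0.026 with the size factors of DESeq2, Col4a1 and Lama3 to -0.33 and -0.41 at 1500 UMIs, and Col4a1 and Col4a2 to -0.020 and 0.25 with all UMIs summed; within single libraries Itgb4 was -0.50 and 0.0485, Lamb3 -0.15 and 0.42, and Col4a1 -0.15 and 0.69. Depth limits Col17a1 and Lama5 in adult cTEC, with 11 to 19 UMIs per library.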
